A study of Mus musculus with 401 samples.

Results

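Single oocytes of mice aged 9 and 14 months were compared within the second set of samples. Of 401 libraries in the series, 255 belonged to this set, and the 32 analysed here were those whose labels give an oocyte at 9 months (16 libraries) or at 14 months (16 libraries). The labels name 4 mice at 9 months (9mo21 to 9mo24, 4 oocytes each) and 5 mice at 14 months (14mo37, 14mo40 and 14mo41 with 4 oocytes each, 14mo38 and 14mo39 with 2 each). The females were B6D2F1 hybrids of C57BL/6 and DBA/2 fed ad libitum (AL), without a transgene, and received a hyperovulation injection 48 h before the ovaries were collected. The methods name equine chorionic gonadotropin or CARD HyperOva for this injection and do not say which mice received which. Each library held 1 oocyte at the germinal vesicle (GV) stage from a fully grown follicle, and its cumulus cells were profiled in a library of their own. Library names start with B1 or B2, taken here as the plate, and each plate held 8 oocytes of each age, from 2 mice at 9 months on either plate and from 3 (B1) or 2 (B2) mice at 14 months. Because oocytes of 1 mouse share that mouse, counts were summed per mouse before testing, so n below is the number of mice. The comparison asks which transcripts of the oocyte differ between a middle and a late stage of reproductive life.

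A fully grown GV oocyte is arrested in meiotic prophase and nearly silent in transcription, so its RNA is a store of maternal messengers that is read out during maturation and the first divisions of the embryo. The cumulus cells around it contact its membrane through the zona pellucida by thin projections that end in gap junctions. With maternal age, segregation of chromosomes in these oocytes becomes less reliable, and transcripts of the maternal store, of cohesin and of the respiratory chain are among those studied for it.

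Libraries at 14 months were somewhat deeper. Total counts ranged from 1860244 to 2285198 (median 2117775) per oocyte at 9 months and from 1985560 to 2583456 (median 2270752) at 14 months. The labelled cell type held in both groups: 17 oocyte markers, among them Gdf9, Bmp15 and the zona pellucida genes, summed to 18840 to 31090 CPM (counts per 1000000 counts) in the 32 oocytes and to 11.8 to 30.2 CPM in cumulus cells of the same mice. No library stood apart, and no pair of the 32 libraries agreed within sampling noise.

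Between 9 and 14 months, 1 of 23890 genes tested passed an adjusted p of 0.05 in edgeR's quasi-likelihood test with plate as a covariate. It was Gm26917, annotated as a long noncoding RNA, which was higher at 14 months. This is 0.00419% of the genes tested in either direction and 0.00419% in the upward direction, and 0 genes (0%) were called lower. At an unadjusted p under 0.05 there were 1603 genes (6.71%), 934 higher (3.91%) and 669 lower (2.8%) at 14 months. Precision was highest for abundant messengers. Among 9455 genes with a mean of at least 8 CPM, the median size of the log2 fold change was 0.06 and its median standard error 0.08, and the 95% confidence interval lay within 1.5-fold in either direction for 9287 genes (98.2%) and within 1.25-fold for 7132 (75.4%). Only 14 of the 9455 (0.148%) had an estimate over 1.5-fold. Across all 23890 genes, which include those with few reads, intervals lay within 1.5-fold for 48.6%, so changes of that size were not detectable in many low genes. The values of the mice did not overlap between the ages for 514 genes (2.15% of those tested), 193 (0.808%) higher and 321 (1.34%) lower at 14 months, and for 230 (2.43%) of those with at least 8 CPM.

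**Figure D1:**
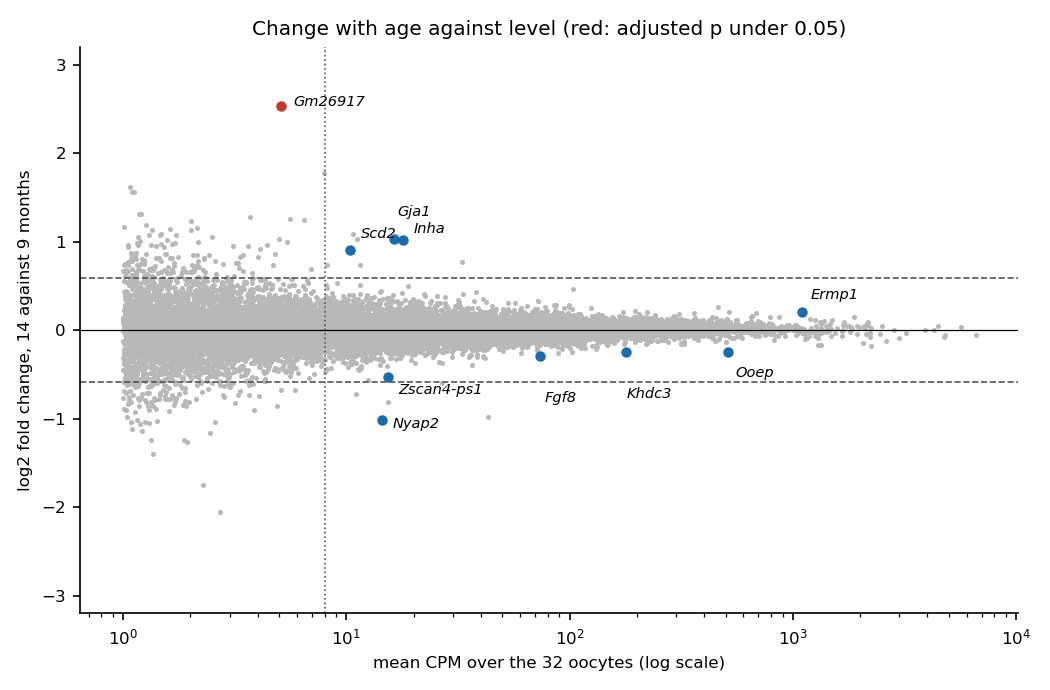
Log2 fold change between 14 and 9 months (y axis) against the mean level over the 32 oocytes (x axis, CPM on a log scale) for each gene of at least 1 CPM. Dashed lines mark 1.5-fold in either direction and the dotted line 8 CPM; Gm26917 (red) is the gene called, and genes in blue are named in the text but were not called.

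Principal components of log10(RPKM + 1) did not separate the ages. PC1 held 6.42% of the variance and averaged -0.189 ± 1.82 (SD, n = 4 mice) at 9 months and 0.838 ± 3.06 (n = 5) at 14 months (two-sided exact permutation test over mice, p = 0.508, Benjamini-Hochberg p = 0.61 over 6 such measures). PC2 held 4.56% and averaged -1.39 ± 2.12 and 1.05 ± 2.36 (exact p = 0.175, adjusted 0.262). It was higher at 14 months on both plates, by 2.48 on B1 and 3.23 on B2, while PC1 differed by 1.66 on B1 and by -0.687 on B2. The permutation test has no term for plate. Mouse means of PC2 at 9 months were -2.97 and -3.24 on B1 and -0.611 and 1.26 on B2. At 14 months they were -1.23, -0.917 and 0.262 on B1 and 3.67 and 3.44 on B2, so mice of the ages did not overlap within either plate. The plates themselves lay further apart on PC1 than the ages, with means over mice of 2.33 on B1 and -2.06 on B2.

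**Figure D2:**
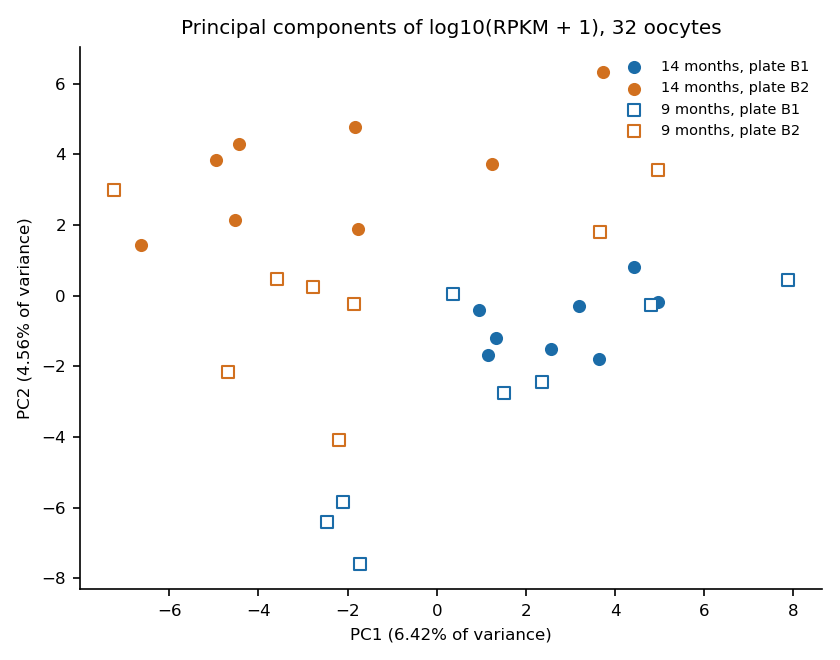
PC1 (x axis) and PC2 (y axis) of log10(RPKM + 1) for the 32 oocytes; filled circles are oocytes at 14 months, open squares oocytes at 9 months, and the colour gives the plate. Ages overlap along both axes, and oocytes of plate B1 lie mostly to the right.

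Gm26917 (ENSMUSG00000097971) is annotated as a lincRNA on chromosome 17 of GRCm38 from 39843013 to 39846341, on the plus strand. Its level was 1.82, 1.03, 1.59 and 1.49 CPM in the mice at 9 months and 5.23, 8.48, 5.89, 7.92 and 14.7 CPM in those at 14 months. Every mouse at 14 months lay above every mouse at 9 months, with means of 1.48 ± 0.331 CPM (SD, n = 4) and 8.45 ± 3.76 (n = 5). The fitted log2 difference was 2.53, with a standard error of 0.27 and an edgeR adjusted p = 0.00346. The change was 2.14 on plate B1 and 2.86 on plate B2. These are few reads, 0 to 6.25 counts (median 2.75) per oocyte at 9 months and 5.25 to 49.5 (median 16.5) at 14 months, and its mean of 5.09 CPM is under the limit set for naming genes, so it is named after its values were seen. Mice at 2 months were at 2.18, 1.33, 14.67, 7.18 and 4.97 CPM (mean 6.07 ± 5.34), 1 of them within the range at 9 months, and the 8 mice at 4 months at 3.43 to 9.66 CPM (5.56 ± 2.15), above it. The change was not seen in the first set of samples, where the log2 fold change was 0.03 (standard error 1.0). Oocytes there were at 742, 594.6, 6.04 and 856 CPM in the middle mouse labels (9 months) and at 711 and 413.5 CPM in the old labels (14 months). The granulosa cell messenger Inha was also high in these labels, at 207, 69.0, 9.75 and 247 CPM and at 256 and 91.5 CPM. In the second set its mice were at 9.11 to 34.2 CPM. The 2 sets thus differ in such RNA, and how far this bears on comparing them was not tested.

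Cumulus cells held far more of this RNA, 33970 ± 14420 CPM (n = 4) at 9 months and 28700 ± 6616 (n = 5) at 14 months, and their log2 difference was -0.28 (edgeR adjusted p = 0.717). The level in oocytes was thus 0.00436% of that in cumulus cells at 9 months and 0.0294% at 14 months. Oocyte and cumulus changes of the same mice differed by 2.80 on the log2 scale (adjusted p = 2.88e-06 from edgeR), the only gene of 18255 so tested that passed (0.00548%). With the cumulus marker level of each mouse as a further covariate the log2 fold change was 2.67 (unadjusted p = 4.33e-06) and the adjusted p was 0.103. DESeq2 gave the gene no adjusted p because of its low count, and with mice of 4 ages in one fit the adjusted p was 0.304. Gm26917 ends at 39846341. The next genes along the chromosome, Gm42418, AY036118 and CT010467.1 (the last annotated as rRNA from 39846353 to 39848827 on the minus strand), were noted for their position. They were at 1408 ± 159, 1377 ± 155 and 2368 ± 250 CPM at 9 months and 1233 ± 90.7, 1206 ± 85.6 and 2061 ± 156 CPM at 14 months, with log2 fold changes of -0.17, -0.17 and -0.18 (adjusted p of 0.491, 0.489 and 0.519), so they did not share the direction of Gm26917. Nonzero counts that were not whole made up 32.3% for Gm26917 and 100% for its 3 neighbours, so part of their reads was shared between genes. Whether the reads counted for Gm26917 come from a transcript of its own was not tested.

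Ooep had the lowest p among genes lower at 14 months. With Khdc3, Nlrp5, Tle6, Padi6 and others it encodes the subcortical maternal complex, an assembly under the membrane of the oocyte that embryos need for their first divisions. Promoters of Ooep and Khdc3 are shown because these were the 2 members of the complex with the lowest p. Both are RefSeq sequences of GRCm38.p6 from 250 bases before to 50 bases after the start, written 5′ to 3′ on the strand of the gene. For both genes this start lies inside the gene as GENCODE annotates it, which begins further upstream. Capitals mark matches to the E-box letters CANNTG. The E-box is the letter pattern bound by helix-loop-helix factors such as FIGLA of the oocyte, and it reads the same on both strands.
Ooep, chr9:78378539-78378838, minus strand: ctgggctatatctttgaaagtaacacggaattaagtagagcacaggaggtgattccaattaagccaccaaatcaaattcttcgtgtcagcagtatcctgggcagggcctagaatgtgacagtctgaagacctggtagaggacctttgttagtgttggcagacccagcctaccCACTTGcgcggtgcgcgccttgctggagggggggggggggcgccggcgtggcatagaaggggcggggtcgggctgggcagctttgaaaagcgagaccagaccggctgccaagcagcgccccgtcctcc
Khdc3, chr9:73102148-73102447, plus strand: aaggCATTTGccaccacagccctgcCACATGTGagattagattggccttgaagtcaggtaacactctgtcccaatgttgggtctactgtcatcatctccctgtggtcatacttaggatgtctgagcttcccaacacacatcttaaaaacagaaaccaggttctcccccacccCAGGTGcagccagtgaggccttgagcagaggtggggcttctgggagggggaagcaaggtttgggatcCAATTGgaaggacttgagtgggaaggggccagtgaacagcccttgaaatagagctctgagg
The Ooep promoter holds 1 match, starting 78 bases before the start, and the Khdc3 promoter 5, of which the second overlaps with the next. Of 32851 promoters of this length, 72.3% hold at least 1 match and 2.1% at least 5, so a match as such is common. No binding was measured.

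The level of Ooep (ENSMUSG00000032346, chromosome 9 from 78376109 to 78378725) was 581, 566, 506 and 559 CPM in the mice at 9 months and 482, 476, 470, 465 and 444 CPM in those at 14 months. The ages did not overlap, with means of 553 ± 32.3 CPM (SD, n = 4) and 467 ± 14.7 (n = 5). The log2 fold change was -0.25 (standard error 0.04, 95% interval -0.33 to -0.17, p = 6.14e-06, adjusted p = 0.0683 from edgeR), -0.27 on plate B1 and -0.23 on plate B2, and it was not called. Khdc3 (ENSMUSG00000092622, chromosome 9 from 73101836 to 73104438) was at 208, 192, 189 and 195 CPM at 9 months and at 168, 184, 178, 150 and 156 CPM at 14 months. Here too every mouse at 14 months lay below every mouse at 9 months (196 ± 8.50 against 167 ± 14.5 CPM), by a fitted log2 difference of -0.25 (standard error 0.05, edgeR adjusted p = 0.255). With each oocyte as a unit and plate kept as a covariate, 4 genes (0.0167% of those tested) were called. They were Gm26917 and, lower at 14 months, Ooep and Khdc3 (adjusted p = 0.00395 each from edgeR) and Gm20509. Exons of Gm20509 overlap those of Khdc3, and 62.5% of the nonzero counts of Khdc3 were not whole. Part of the reads of Khdc3 was thus shared between genes, and its own level is uncertain. The fit over oocytes has no term for the mouse, so oocytes of the same mouse count as separate replicates of age. Its p-values can therefore be too small, and its calls are not read as support for the test over mice. On sums per mouse, DESeq2 gave an adjusted p of 2.96e-07 for Ooep and 0.0035 for Khdc3, among 26 genes it called. Limma-voom with the mouse as a random effect gave 0.00314 for each, among 12 called. Its estimated correlation between oocytes of a mouse was -0.0247, so it treats them almost as separate replicates.

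Levels at the younger ages overlapped with those of both groups. Ooep averaged 493 ± 22.04 CPM (n = 5) at 2 months and 532 ± 53.2 (n = 8) at 4 months, and Khdc3 194 ± 9.63 and 185 ± 14.9 CPM. The lowest of these 13 mice was at 452 CPM for Ooep, which 1 mouse at 14 months lay below, and at 160.2 CPM for Khdc3, which 2 mice at 14 months lay below. In the first set of samples, where 4 middle mouse labels (9 months) were compared with 2 old labels (14 months), the log2 fold change of Ooep was 0.03 (standard error 0.19) and that of Khdc3 -0.29 (0.20), with no gene called of 25087 tested (0%) and 765 at an unadjusted p under 0.05. Of the 8 genes of the complex, 6 were lower and 2 higher at 14 months, none was called, and 3 were lower at an unadjusted p under 0.05 (2.8% of all genes tested were), these same 3 also without overlap between mice (1.34% of all genes tested). The last of these was Tle6, at 1170 ± 24.5 and 1098 ± 40.2 CPM (log2 fold change -0.10, standard error 0.03, adjusted p = 0.568 from edgeR). The complex had a median log2 fold change of -0.07, against 0.01 for all genes of at least 8 CPM, and Zbed3, its most abundant member, stood at 6693 ± 115 and 6426 ± 267 CPM (-0.05).

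**Figure D3:**
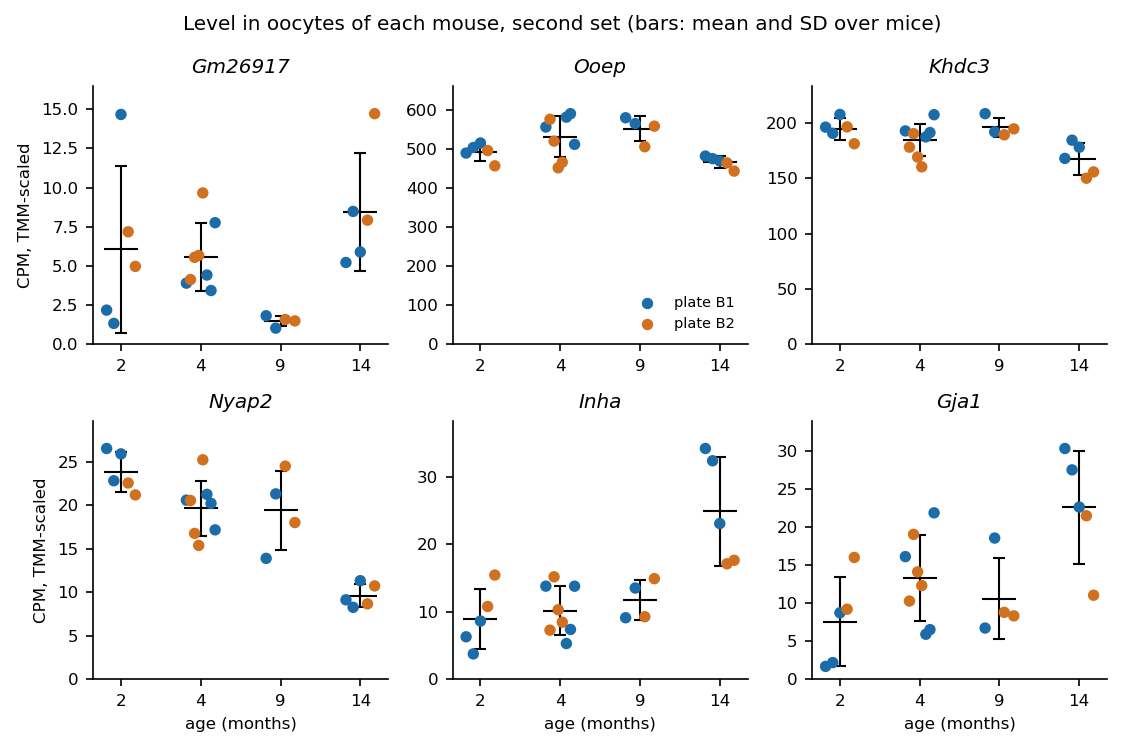
Levels of 6 genes in the oocytes of each mouse of the second set (y axes, CPM from counts summed per mouse) by age (x axes, months); points are mice coloured by plate, and bars give the mean and SD over mice. Gm26917 has its lowest mean at 9 months, Ooep, Khdc3 and Nyap2 have every mouse at 14 months below those at 9 months, and Inha has every mouse at 14 months above them.

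Nyap2, which encodes an adaptor that links tyrosine kinase signals to PI3K in neurons, showed the largest difference in this direction among the 12 genes of lowest p. Its level (ENSMUSG00000054976, chromosome 1 from 81076950 to 81341764) was 13.9, 21.3, 24.5 and 18.0 CPM in mice at 9 months and 9.12, 8.26, 11.3, 8.67 and 10.7 CPM at 14 months. The ages did not overlap (19.4 ± 4.54 against 9.62 ± 1.33 CPM), and the fitted log2 difference of -1.01 (standard error 0.15, edgeR adjusted p = 0.0683) was -0.90 on plate B1 and -1.14 on plate B2. With mice of 2 and 4 months in the same fit, Nyap2 was the one gene called (adjusted p = 0.0133 from edgeR). Those mice were at 23.8 ± 2.30 CPM (n = 5) and 19.6 ± 3.13 (n = 8), both above the level at 14 months, and in the first set the log2 fold change was -0.71 (standard error 0.28, unadjusted p = 0.0283). Cumulus cells had next to no Nyap2, 0.0746 CPM at 9 months and 0 at 14 months.

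The other genes with the lowest p among those lower at 14 months, none of them called, code for a growth factor, respiratory and ribosomal proteins and linker histone. Fgf8, a growth factor that oocytes release to cumulus cells, was at 78.3, 85.6, 78.5 and 81.0 CPM at 9 months and at 64.5, 60.6, 60.5, 67.6 and 72.9 CPM at 14 months, without overlap (log2 fold change -0.29, standard error 0.06, adjusted p = 0.362 from edgeR). Atp5e, a subunit of ATP synthase, was at 96.6 ± 4.33 and 80.7 ± 3.08 CPM (-0.26), and the ribosomal protein gene Rps21 at 46.5 ± 1.63 and 37.9 ± 4.46 CPM (-0.31). Cttnbp2, a regulator of the actin cytoskeleton, was at 13.8 ± 1.54 and 8.49 ± 1.72 CPM (-0.72), Ptges3, a cochaperone of Hsp90, at 331 ± 19.4 and 300.2 ± 18.1 CPM (-0.15), and the histone H1 gene Hist1h1a at 80.9 ± 6.91 and 64.8 ± 6.33 CPM (-0.30). Zscan4-ps1 (18.3 ± 2.50 and 12.7 ± 1.53 CPM, -0.53) has close copies, and Gm20509 (112 ± 6.90 and 94.9 ± 6.65 CPM, -0.25) shares exons with Khdc3 and Rsl24d1, so their own levels are uncertain. Of the 12 genes of this direction, 4 were also lower in the first set, where 48.3% of all genes of at least 8 CPM lower in the second set were. In the first set Rps21 stood at 0.72 (standard error 0.31) in the opposite direction.

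Among genes higher at 14 months with the lowest p, several are messengers of granulosa and cumulus cells. Inha encodes the alpha subunit of inhibin, a hormone of granulosa cells that restrains FSH. Its level (ENSMUSG00000032968, chromosome 1 from 75507077 to 75510366) was 9.11, 13.5, 9.26 and 14.9 CPM in oocytes of the mice at 9 months and 34.2, 32.4, 23.1, 17.1 and 17.6 CPM at 14 months. The ages did not overlap (11.7 ± 2.96 against 24.9 ± 8.07 CPM), and the log2 fold change was 1.02 (standard error 0.19, adjusted p = 0.255 from edgeR), larger on plate B1 at 1.42 than on B2 at 0.52. Gja1 encodes connexin 43, the gap junction protein that joins cumulus cells to each other. It was at 6.72, 18.6, 8.78 and 8.32 CPM at 9 months and at 30.4, 27.5, 22.6, 21.5 and 11.04 CPM at 14 months, where 1 mouse of each age reached into the range of the other (log2 fold change 1.04, standard error 0.24, adjusted p = 0.465 from edgeR). Scd2, a fatty acid desaturase, averaged 7.21 ± 0.767 and 13.7 ± 4.58 CPM (0.90) without overlap, and Hsd17b1, which converts estrone to estradiol in granulosa cells, 3.28 ± 1.91 and 8.16 ± 2.66 CPM (1.26).

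These messengers were far more abundant in cumulus cells, and their log2 fold changes between the ages were smaller there. Inha stood at 3492 and 3867 CPM at 9 and 14 months (log2 fold change 0.06), Gja1 at 6806 and 6931 CPM (0.01) and Scd2 at 2842 and 3247 CPM (0.19). Tested as a difference, oocyte and cumulus changes were apart by 0.98 for Inha, 1.06 for Gja1 and 0.72 for Scd2. None of these passed (edgeR adjusted p = 0.152, 0.238 and 0.318). The level in oocytes was 0.335% of that in cumulus cells for Inha at 9 months and 0.644% at 14 months, 0.156% and 0.326% for Gja1, 0.197% and 0.392% for Inhbb, 0.194% and 0.415% for Inhba and 0.494% and 1.01% for Hsd17b1. Other markers had higher shares that moved less, 24.8% and 24.6% for Serpine2, 11.4% and 10.8% for Nr5a2, 9.63% and 10.7% for Kitl, 8.19% and 6.96% for Cyp19a1 and 0.977% and 1.02% for Fshr. Amh, at 0.449% and 0.521%, and Foxl2, at 0.39% and 1.1%, had few reads in oocytes. The immediate early genes Fos (0.227% and 0.559%) and Fosb (0.263% and 0.426%) lay near the first group, and the nuclear RNA Malat1 (0.0705% and 0.245%) below it. With the cumulus marker level as a further covariate, the log2 fold change was 0.49 for Scd2 and 0.54 for Fos, in place of 0.90 and 1.77, and 1.34 for Malat1, 1.22 for Galnt12 and 0.38 for Hjurp, in place of 1.25, 1.08 and 0.26. Inha, Gja1 and Hsd17b1 are members of the sum that served as covariate, so no adjusted value is given for them. Most of that sum came from Serpine2 and Nr5a2, whose shares moved little, and its mean was itself higher at 14 months. The values with this covariate therefore do not show how much cumulus RNA adds to a gene, which was not tested.

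The 12 cumulus and granulosa cell markers summed to 282 to 453 CPM over the 32 oocytes, 1.82% of their median of 18610 CPM in cumulus cells. Per mouse the level was 315, 329, 319 and 346 CPM at 9 months and 390, 352, 339, 344 and 360.2 CPM at 14 months, with means of 327 ± 13.7 (n = 4) and 357 ± 20.2 (n = 5). The ages overlapped, and the difference of 29.9 CPM (two-sided exact permutation test, p = 0.0476, adjusted p = 0.0952) was 38.4 on B1 and 19.8 on B2. Most of this sum came from Serpine2 (204 ± 8.82 and 197 ± 14.9 CPM) and Nr5a2 (63.2 ± 2.61 and 58.3 ± 7.23 CPM). Without these, a choice made after the values were seen, the other 10 markers summed to 47.7, 69.0, 51.9 and 63.0 CPM at 9 months and 132, 113, 98.5, 90.0 and 75.5 CPM at 14 months (57.9 ± 9.82 against 102 ± 21.5 CPM). Because the 2 markers removed were lower at 14 months (log2 fold changes of -0.04 and -0.09), this sum is a description with no test. Of the 12 markers, 9 were higher, 5 of them at an unadjusted p under 0.05 (3.91% of all genes tested were), and none was called. Reads of cumulus RNA in the tube of the oocyte and transcripts of the oocyte itself cannot be told apart here, and the part of either in these values was not tested.

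**Figure D4:**
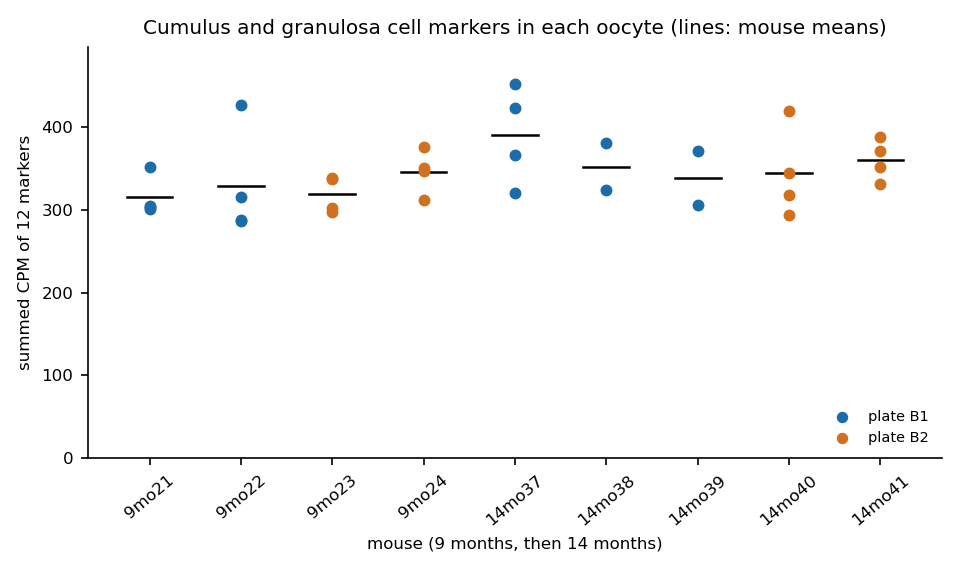
Summed level of the 12 cumulus and granulosa cell markers (y axis, CPM) in each oocyte, by mouse (x axis, mice at 9 months first); points are oocytes coloured by plate and lines are means of a mouse. Mouse means run from 315 to 346 CPM at 9 months and from 339 to 390 at 14 months.

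Markers of other cells of the follicle were low. Theca and luteal cell markers summed to 1.37 to 12.7 CPM in the oocytes (120 to 1131 CPM in cumulus cells) and red blood cell markers to 0 to 5.54 CPM. Leukocyte markers summed to 12.2 to 32.3 CPM and endothelial markers to 78.6 to 124 CPM, more than in cumulus cells. Insl3, Hbb-bs, Hbb-bt, Adgre1, C1qa, C1qc and Tyrobp had no count in any of the 32 oocytes. Per mouse the theca and luteal sum ranged from 3.19 to 4.998 CPM at 9 months and from 4.11 to 9.51 at 14 months, the leukocyte sum from 18.3 to 24.6 and from 19.4 to 26.04, the red blood cell sum from 0.456 to 1.62 and from 0 to 2.45, and the endothelial sum from 95.4 to 106 and from 84.0 to 105 CPM, overlapping between the ages in each case.

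The remaining genes higher at 14 months with the lowest p, again none called, were for the most part abundant and differed by small amounts. Ermp1, a metallopeptidase of the endoplasmic reticulum that is needed for the organization of follicles, was at 980, 979, 1062 and 1042 CPM in mice at 9 months and at 1189, 1051, 1121, 1210 and 1249 CPM at 14 months, overlapping in 1 mouse (log2 fold change 0.21, standard error 0.04, adjusted p = 0.186 from edgeR). Zc4h2, a zinc finger gene, was at 5.24 to 7.31 CPM at 9 months and 9.09 to 10.8 CPM at 14 months without overlap (6.18 ± 0.878 against 10.3 ± 0.697 CPM, 0.73). Ogt, the enzyme that adds O-GlcNAc to proteins, was at 161 ± 8.36 and 184 ± 16.5 CPM (0.21), Ythdf3, a reader of N6-methyladenosine in RNA, at 291 ± 20.95 and 324 ± 31.6 CPM (0.18), and Sumo3, a small ubiquitin-like modifier, at 182 ± 4.33 and 211 ± 13.4 CPM (0.22). Hjurp, the chaperone that loads CENP-A at centromeres, was at 428 ± 26.6 and 510 ± 48.8 CPM (0.26). Arl6ip1 (337 ± 18.5 and 383 ± 20.3 CPM, 0.19), Galnt12 (6.80 ± 1.38 and 14.6 ± 5.95 CPM, 1.08) and BC022960 (70.6 ± 5.21 and 83.6 ± 5.15 CPM, 0.26) complete the 12. Of these, 5 were also higher in the first set (43.9% of all genes of at least 8 CPM higher in the second set). Hjurp was at -0.38 (standard error 0.20) and Ermp1 at -0.20 (0.15) there.

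No gene of any of 25 lists was called. All 13 genes for mitochondrially encoded proteins were higher at 14 months, 4 at an unadjusted p under 0.05 (3.91% of all genes tested were). Their median log2 fold change was 0.22 against 0.00 for all genes tested. Values ranged widely between mice. The NADH dehydrogenase subunit mt-Nd1 was at 72.4, 76.3, 82.8 and 111 CPM at 9 months and at 111, 66.1, 96.5, 133 and 162 CPM at 14 months (0.46, standard error 0.12, adjusted p = 0.489 from edgeR), and the cytochrome oxidase subunit mt-Co2 at 63.3 ± 13.4 and 76.7 ± 25.02 CPM (0.33). In neither gene were the mice of one age apart from those of the other. The share of mitochondrial RNA in all counts was 0.521% ± 0.0558 (n = 4) and 0.536% ± 0.0759 (n = 5; exact p = 0.81, adjusted 0.81), and it was higher on plate B2 (0.588%) than on B1 (0.482%). Of 86 nuclear genes for the respiratory chain and ATP synthase, 65 were lower, 8 of them at an unadjusted p under 0.05 (2.8% of all genes tested were). The other 21 were higher, 1 of them so (3.91% of all genes tested), and the median of the 86 was -0.07. No test compared the 2 classes, and in the first set both medians were above 0, at 0.51 for the mitochondrially encoded and 0.23 for the nuclear genes. Ndufa13 (21.9 ± 3.02 and 18.3 ± 2.32 CPM, -0.27) and Atp5g1 (67.7 ± 3.27 and 61.2 ± 3.54 CPM, -0.15) followed Atp5e in p.

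Genes of the ribosome lay mostly on the lower side. Of 78 genes for cytoplasmic ribosomal proteins, 66 were lower at 14 months, 26 at an unadjusted p under 0.05 (2.8% of all genes were), and 12 higher, 1 of them so. Their median log2 fold change was -0.08, -0.08 on plate B1 and -0.14 on B2, and their sum 4774 ± 86.1 CPM (n = 4; 4663 to 4853) against 4467 ± 159 (n = 5; 4316 to 4702), with overlap between the ages. In 9 of the 78 all mice at 14 months lay below those at 9 months (1.34% of all genes tested did), among them Rps27a (39.2 ± 2.30 and 31.7 ± 2.01 CPM, -0.30). The first set had the opposite sign, a median of 0.49. Mitochondrial ribosomal proteins had 57 of 77 genes lower, 5 at an unadjusted p under 0.05 (2.8% of all genes were). Their median was -0.06, against 0.16 in the first set. They were led by Mrpl52 (8.13 ± 0.641 and 5.57 ± 1.19 CPM, -0.54) and Mrps12 (12.99 ± 2.33 and 9.33 ± 1.53 CPM, -0.44). Proteasome subunits had 25 of 37 lower (median -0.05), with Psmb7 at 76.3 ± 2.39 and 69.6 ± 5.28 CPM. Core histone genes had 43 of 58 lower, 3 at an unadjusted p under 0.05 (2.8% of all genes were), and a median of -0.12 that was 0.71 in the first set. Hist1h2ba was at 13.5 ± 3.96 and 9.67 ± 1.77 CPM (-0.43), Hist1h3f at 8.94 ± 0.761 and 7.16 ± 0.513 CPM (-0.33), and 5 of the 58 genes had at least 8 CPM.

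**Figure D5:**
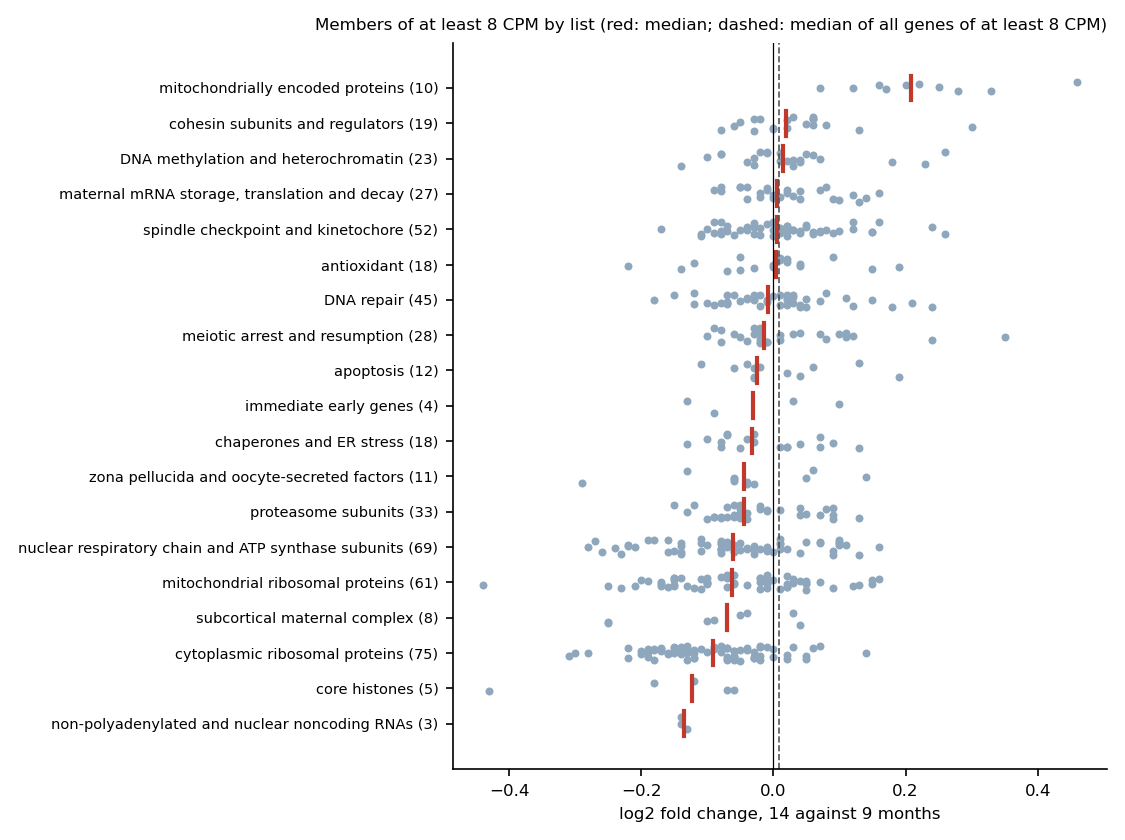
Log2 fold change between 14 and 9 months (x axis) of the members of at least 8 CPM of each list (rows, with their number); points are genes, red bars the median of the list and the dashed line the median of all genes of at least 8 CPM (0.009). Lists of ribosomal proteins lie mostly below 0 and mitochondrially encoded proteins above it, while cohesin, spindle and repair lists centre near 0.

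Genes that hold and move chromosomes centred near no change. Of 21 genes of cohesin and its regulators, 12 were higher and 9 lower, none at an unadjusted p under 0.05, with a median log2 fold change of 0.02. The list had 22 members, of which 1 had no count in any of the 32 oocytes. Rec8, the cohesin subunit that the authors stained on chromosomes, was not among the 21 genes tested. The meiotic cohesin gene Smc1b was at 7.52 ± 1.71 and 9.12 ± 1.63 CPM (0.30, 95% interval -0.00 to 0.60), Rad21l, a meiotic kleisin, at 2.14 ± 0.712 and 1.68 ± 0.502 CPM (-0.41, -1.0 to 0.18) and Stag2 at 58.1 ± 5.74 and 62.9 ± 4.83 CPM (0.13, -0.02 to 0.27). Spindle checkpoint and kinetochore genes split evenly, 27 higher and 27 lower (median 0.00), with Hjurp, Cenpp (30.3 ± 2.78 and 33.4 ± 2.43 CPM, 0.16) and Mis12 (72.5 ± 1.80 and 77.7 ± 6.39 CPM, 0.12) at the lowest p. Genes of meiotic arrest and resumption split 15 to 16 (median -0.01), and those at the lowest p were higher at 14 months: Adcy9, an adenylyl cyclase (30.9 ± 1.83 and 36.6 ± 2.63 CPM, 0.24), Prkar2b, a regulatory subunit of protein kinase A (17.4 ± 1.48 and 21.8 ± 3.97 CPM, 0.35), and Ccnb1, cyclin B1 (620 ± 14.9 and 660 ± 66.7 CPM, 0.10). DNA repair genes split 25 to 25 (median 0.00), with Msh3 at 71.8 ± 2.78 and 82.0 ± 6.56 CPM (0.21) and Msh6 at 170 ± 5.98 and 156 ± 7.42 CPM (-0.12).

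Other parts of the maternal store differed as little. Of 12 genes of the zona pellucida and oocyte-secreted factors, 9 were lower (median -0.05). Zp3, the sperm-binding protein of the zona, was at 2739 ± 207 and 2544 ± 278 CPM (-0.13) and Oosp2 at 88.9 ± 20.9 and 94.3 ± 28.7 CPM (0.14). Of the 17 oocyte markers 14 were lower, 4 at an unadjusted p under 0.05 (2.8% of all genes tested were), with a median of -0.06. Genes for storage, translation and decay of maternal mRNA had 15 higher and 13 lower. At an unadjusted p under 0.05 there were 5 higher and 1 lower (3.91% and 2.8% of all genes tested). Among those higher were the deadenylase Cnot7 (615 ± 70.9 and 673 ± 123 CPM, 0.16) and the decapping factor Dcp1a (1643 ± 74.1 and 1732 ± 99.6 CPM, 0.09). DNA methylation and heterochromatin genes split 15 to 13, and the de novo methyltransferase Dnmt3b did not overlap between mice, at 18.5, 19.4, 18.3 and 19.9 CPM at 9 months and 23.8, 22.9, 23.8, 22.6 and 21.2 CPM at 14 months (0.26, standard error 0.08, adjusted p = 0.589 from edgeR). Setd2 was at 234 ± 15.4 and 214 ± 15.4 CPM (-0.14) and Cbx5 at 41.4 ± 4.13 and 46.4 ± 3.30 CPM (0.18).

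Stress and death genes held no call. Antioxidant genes split 14 to 12, with Gclm, a subunit of glutathione synthesis, at 57.7 ± 2.94 and 65.5 ± 5.04 CPM (0.19) and Hmox1 at 0.671 ± 0.622 and 1.68 ± 0.406 CPM (1.31). Chaperones and genes of ER stress had 10 higher and 16 lower, with Ern1 at 2072 ± 78.7 and 2181 ± 118 CPM (0.09) and Hspa8 at 483 ± 23.7 and 451 ± 25.9 CPM (-0.10). Apoptosis genes split 12 to 11, with Casp2 at 57.1 ± 3.97 and 62.5 ± 5.02 CPM (0.13). Immediate early genes had 14 of 20 higher, and 4 of the 20 had at least 8 CPM. Fos was at 2.39, 8.71, 0.975 and 1.86 CPM at 9 months and 28.4, 14.8, 6.11, 5.35 and 6.28 CPM at 14 months (1.77, standard error 0.41, adjusted p = 0.465 from edgeR), overlapping, and Fosb at 3.37 ± 1.06 and 6.18 ± 1.80 CPM (0.86). Noncoding RNAs split 6 to 6. Malat1 was at 4.21, 3.90, 2.93 and 4.22 CPM at 9 months and 11.1, 14.4, 15.4, 6.85 and 3.57 CPM at 14 months (1.25, standard error 0.24, adjusted p = 0.318 from edgeR), and the 7SL RNA gene Rn7s1 at 526 ± 20.1 and 478 ± 20.6 CPM (-0.14), a value it shares with its copy Rn7s2.

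Genes detected and the spread between oocytes of the same mouse differed between the ages at full depth. Per mouse, 18130 ± 190 genes (n = 4) had a count of at least 1 at 9 months and 18460 ± 119 (n = 5) at 14 months (exact p = 0.0159, adjusted p = 0.0476), and 1 minus the Spearman correlation of RPKM between oocytes of a mouse averaged 0.0774 ± 0.00127 and 0.0745 ± 0.00112 (exact p = 0.0159, adjusted 0.0476). On counts rounded to whole numbers, the values were 18440 ± 192 and 18760 ± 109 genes (exact p = 0.0159) and 0.0541 ± 0.000841 and 0.0516 ± 0.00149 (exact p = 0.0317). After these rounded counts were thinned to 1859930 per library, a step chosen after the depths were seen, they were 18170 ± 105 and 18270 ± 157 genes (exact p = 0.286) and 0.0569 ± 0.000492 and 0.0564 ± 0.00198 (exact p = 0.683).

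In the test of whether the change between ages differed between plates (interaction of age and plate in edgeR), 0 of 23890 genes (0%) passed an adjusted p of 0.05, with 1233 at an unadjusted p under 0.05. In cumulus cells of the same 9 mice, the same fit called 4 of 24143 genes (0.0166%), Ak4, E330023G01Rik, Pde7b and Acat2. Of these Pde7b, a cyclic AMP phosphodiesterase, was at 35.4 ± 9.02 and 7.92 ± 4.72 CPM in cumulus cells (log2 fold change -2.11, adjusted p = 0.048 from edgeR) and at 2.28, 8.14, 5.97 and 1.62 CPM in oocytes at 9 months and 1.0, 2.12, 0.906, 0.642 and 1.08 CPM at 14 months (-2.06, standard error 0.46, adjusted p = 0.402), where the ages overlapped.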

How the data were processed

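RamDA-seq copies total RNA along whole transcripts. Per the labels and methods, the authors removed adapters (Fastq-mcf), aligned to GRCm38 using Hisat2 2.0.5 and counted reads on GENCODE vM15 with featureCounts 1.5.1, multi-mapped reads included and strand not used. They deposited expected count values for 42349 genes, of which 36.8% of the nonzero values in the 32 oocytes were not whole, and RPKM values. Reads carry no molecular identifiers, so errors cover counting error and the spread between mice. Symbols and coordinates were taken from GENCODE vM21 (42230 genes matched).

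Counts were summed per mouse, rounded and tested by edgeR 4.0.16 under R 4.3.3 (TMM, quasi-likelihood test, plate as covariate) on genes counted in 5 or more of the 32 libraries, at a Benjamini-Hochberg adjusted p of 0.05. CPM are scaled by TMM over the mice of the second set with hyperovulation (22 mice), separately in oocytes and in cumulus cells. Oocytes at 2 and 4 months are shown for level only. The first set was fitted on middle and old oocytes of 6 mouse labels (31 libraries, less 1 with 1.11% of the median oocyte marker level). Principal components used log10(RPKM + 1) of the same genes (numpy 2.4.6). Values per mouse were compared by two-sided exact permutation tests (scipy 1.17.1), of which 0.0159 is the smallest p for 4 against 5 mice. Nothing says that oocytes of a mouse came from separate ovaries, and separate mice were the units.

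Genes named in the text were to be the 12 called genes of at least 8 CPM with the largest change in each direction. With fewer called, they were the 12 of lowest p in each direction, together with 3 members of lowest p of each of 19 gene lists and of the cumulus markers, of which 2 genes are not reported here. Members and lists were chosen with earlier results of these data known. Alternatives were other units, tools (DESeq2 1.42.0, limma 3.58.1), normalizations, filters, covariates and each mouse left out. The cumulus fit, the difference between oocyte and cumulus changes, the rounded and the thinned libraries and the sum of 10 markers were added after the data were seen. The fit was also run on simulated counts. These had changes only in genes of at least 8 CPM and no difference between plates. They therefore say nothing about lower genes such as Gm26917 or about plate effects.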

Additional observations from a re-analysis of the deposited data

Results flagged for a closer look

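Among 62 groups of 4 or 5 mice examined for the genes named, 3 had 1 mouse far from the others by Dixon's criterion, about the 1 in 20 that chance gives. Atp5e was at 103.1 CPM in mouse 9mo24, against 94.17 to 94.64 in the other mice at 9 months. Gm20509 was at 106.4 CPM in mouse 14mo38, against 90.17 to 94.65 in the other mice at 14 months. Rps21 was at 48.96 CPM in mouse 9mo21, against 45.59 to 45.83 in the others. The change of Gm26917 differed between oocytes and cumulus cells of the same mice by 2.80 on the log2 scale, tested as a difference in edgeR (adjusted p = 2.88e-06), and all 5 mice at 14 months lay above all 4 at 9 months in oocytes.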

How the results depend on the processing

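No paired analysis was possible because no mouse was sampled at both 9 and 14 months. The counts of calls (higher and lower at 14 months) were 1 and 0 and moved to 13 and 13 with DESeq2 (779 at an unadjusted p under 0.05), 19 and 20 with all genes of any count, 3 and 9 with limma-voom and the mouse as a random effect, 1 and 3 with oocytes as units (with or without plate), 1 and 1 with RLE size factors, 1 and 2 with filterByExpr, 0 and 1 with 4 ages in one fit, and 0 and 0 with the cumulus marker level as a covariate or within plate B1 or B2 alone. The cause was not tested. Leaving out 1 mouse at a time gave 1 to 5 higher and 0 to 1 lower: without 9mo24 there were 5 higher (Inha, Hsd17b1, Inhbb and Ldha added), without 14mo38 3 (Ermp1, Galnt12), without 14mo41 3 (Grem1, Malat1), and Nyap2 was called without 9mo21 and Ooep without 9mo23. Gm26917 kept its call without each mouse and lost it in the fit of 4 ages, with the cumulus covariate and within either plate. The cumulus marker difference was 21.69 to 36.16 CPM without 1 mouse, with p up to 0.107, and missed p of 0.05 in 8 of 9 cases. Thinned libraries gave differences of 103.3 genes detected and -0.0004382 in distance between oocytes. The mitochondrial RNA share reversed to -0.001162 without 14mo40, -0.008725 without 14mo41 and -0.0007234 without 9mo21 (up to 0.04202). Of 1633 values of the 76 named genes under alternatives, 1629 kept their direction, 64 (32 genes) passed the threshold under an alternative only, and 4, all Gm26917, lost the call. Rad21l reversed to 0.028 and Glrx2 to -0.01 with the cumulus covariate, Atf4 to -0.002 on plate B2 and Xiap to -0.101 on plate B1. Few reads limit low genes such as Gm26917.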
